A study of Mus musculus with 6 samples.

Results

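The cytosolic ribosomal protein genes were examined in gastrocnemius muscle of mice that express *HrasG12V* and of wild-type (WT) littermates. They were taken by gene symbol, as Rpl or Rps followed by a number and an optional a, l or x, together with *Rplp0*, *Rplp1*, *Rplp2* and *Rpsa*. Symbols with the pseudogene ending -ps (7 symbols) and the kinases named Rps6k were left out. This gave 81 genes of the 23997 symbols in each library, 49 for the large subunit and 32 for the small subunit. The choice used the names only and no measured value.

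RNA sequencing had been done on the gastrocnemius, the large muscle of the calf, of 6 untreated mice aged 21 days, with 1 library per mouse. The *HrasG12V* mice (2276, 2278 and 2279) were Caggs-Cre+ and carried 1 allele with the activating G12V change of the small GTPase HRAS, a model of Costello syndrome. The WT mice (2277, 2280 and 2281) were Caggs-Cre- and carried the same floxed allele without recombination, so both groups held the engineered allele and differed in Cre as well as in *Hras*. The promoter that drives Cre is active throughout the body, so the mutation was not restricted to muscle, and sex, litter and batch of the mice were not given in the sources used here. Values are FPKM, in which the fragments of a gene are divided by transcript length and sequencing yield, and Cuffnorm puts the libraries on a common scale. The values carry no read counts, so the precision of a value is known only from the spread between mice (n = 3 per genotype).

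Cytosolic ribosomes make almost all proteins of a cell. Each ribosomal protein sits on the large or the small subunit around the ribosomal RNA, and in mammals nearly every one is needed in a single copy per ribosome, so their genes are expressed at high and matched levels in all tissues. Their mRNAs begin with a terminal oligopyrimidine (TOP) tract, a C followed by a run of pyrimidines, through which mTOR signalling controls their translation. Ras signalling feeds into ribosome production through the MAPK and PI3K pathways. In skeletal muscle, ribosome content is one determinant of the capacity for growth, and muscle fibres also express *Rpl3l*, a muscle-restricted paralog of *Rpl3*.

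Library 2276 stood apart from the other 5. Its FPKM summed to 814013, against 413020 to 547122 in the others, although the tested genes had a median of 6.39 to 6.64 FPKM in every library. It also had a trend over transcript length. Genes other than the ribosomal protein genes with transcripts below 1000 nt (1475 genes) had a median log2 difference from the WT mean of 0.69 in mouse 2276, and genes of 4000 nt or more (3160 genes) had -0.44. In mice 2278 and 2279 the same short genes were at -0.13 and -0.16. The ribosomal protein genes are short, with a median transcript of 774 nt and 62 of 81 below 1000 nt. The comparisons between genotypes are therefore given with and without mouse 2276. Among muscle markers fixed for this work, 8 of 10 were tested, while *Acta1* and *Myh4* were listed at 0 in all 6 libraries and *Ckm* in 5. *Tnnt3* was at 0 in mouse 2276 only, with 6893 to 10419 FPKM in the other mice, and *Myh1* was at 0 in WT mice 2277 and 2280. The genes at 0 thus differed between mice. *Mylpf*, a fast muscle myosin light chain, was at 10760 to 36114 FPKM, so the tissue label held for the markers that were measured, and the sums of FPKM lack some major muscle genes.

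The promoters of 4 of these genes are shown because the results below turn on them, 3 genes with high values in *HrasG12V* mice and *Rpl3l* as the muscle paralog. Each sequence holds 60 bases before and 20 bases from the annotated start, 5′ to 3′ on the coding strand, from RefSeq on GRCm38.p6. The GENCODE vM21 annotation starts *Rps19* at chr7:24884371, before the whole stretch shown, so the annotations differ for this gene. Capitals mark CTTCCG, the reverse complement of CGGAAG, which contains the GGAA core of ETS factor sites, or CTTTCC, a pyrimidine run of the kind found in TOP tracts. The positions are chr7:45128726-45128805 (minus strand) for *Rpl13a*, chrX:134585594-134585673 (plus strand) for *Rpl36a*, chr7:24884532-24884611 (plus strand) for *Rps19* and chr17:24727766-24727845 (plus strand) for *Rpl3l*.
Rpl13a: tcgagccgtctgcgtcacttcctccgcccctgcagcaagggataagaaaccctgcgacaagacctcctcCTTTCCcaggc
Rpl36a: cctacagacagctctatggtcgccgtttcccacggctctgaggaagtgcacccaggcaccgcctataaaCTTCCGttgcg
Rps19: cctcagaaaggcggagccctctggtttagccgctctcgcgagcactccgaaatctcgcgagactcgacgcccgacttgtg
Rpl3l: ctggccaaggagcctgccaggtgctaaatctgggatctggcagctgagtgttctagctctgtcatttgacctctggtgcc

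RefSeq windows of 300 bases, 250 before and 50 after the start, matched 60 of the 81 genes with 72 windows, and *Rpl3* was among the 21 without one. CGGAAG on either strand was present in 44 of the 72 windows (61.1%), against 16.9% of all 32851 windows of the same length. CTTTCC on the coding strand was present in 28 of 72 windows (38.9%), against 14.1% of all windows. The 300-base window of *Rpl3l* held neither run of letters, and that of *Rps19* held CTTTCC outside the stretch shown. These matches describe letters and were not tested as binding sites.

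To ask whether the ribosomal protein genes differed between genotypes, log2(FPKM + 0.1) was compared with limma over the 13359 genes with a mean of at least 0.5 FPKM. Of the 81 genes, 79 passed this limit. *Rpl10l*, a testis paralog of *Rpl10*, was listed at 0 in all mice, and *Rpl39l*, a testis paralog of *Rpl39*, had 0.169 to 0.793 FPKM. The log2 fold change was above 0 for 75 of the 79 (94.9%), against 46.6% of all genes tested, and its median was 0.53, against -0.03 over all genes. The medians of the large subunit (0.53, 47 genes) and the small subunit (0.54, 32 genes) were alike.

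Few of these differences exceeded the spread between mice. *Rpl3*, *Rpl13a* and *Rpl36a* rose with an unadjusted limma p below 0.05, which is 3.80% of the 79, whereas 5.18% of all genes were higher at that limit. None of the 79 was lower, against 4.99% of all genes. None had a Benjamini-Hochberg adjusted limma p below 0.05, against 0.0599% of all genes. The share called higher was thus not above that of the other genes.

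The order of the mice gave a different count from the test. In 46 of the 79 genes every *HrasG12V* mouse was above every WT mouse, 27 of the large and 19 of the small subunit, against 8.11% of all genes tested. *Rpl26* alone had every *HrasG12V* mouse below every WT mouse (10.4% of all genes), but it was at 0.00176 FPKM or less in 5 libraries and at 3.49 in WT mouse 2281. The groups overlapped for the other 32 tested genes.

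The 3 *HrasG12V* mice differed in the size of the shift. Relative to the WT mean, the genes had a median log2 difference of 1.21 in mouse 2276 (2.32-fold), 0.13 in mouse 2278 (1.09-fold) and 0.25 in mouse 2279 (1.19-fold). Each WT mouse compared with the other WT mice had a median of -0.08, -0.004 and 0.08. Mouse 2276 was above every WT mouse in 77 of 79 genes (43.1% of all genes tested), mouse 2279 in 66 (33.7%) and mouse 2278 in 49 (31.7%). The interquartile range over genes was 1.07 to 1.37 in mouse 2276, 0.17 to 0.33 in mouse 2279 and -0.03 to 0.26 in mouse 2278, and 77, 71 and 55 genes were above the WT mean in these mice (52.1%, 45.7% and 42.5% of all genes). Mouse 2276 held the highest value of all 6 mice in 76 of the 79 genes, and the exceptions were *Rpl3*, *Rpl26* and *Rps27*. The coefficient of variation had a median of 4.53% over WT mice and of 45.6% over *HrasG12V* mice.

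**Figure D1:**
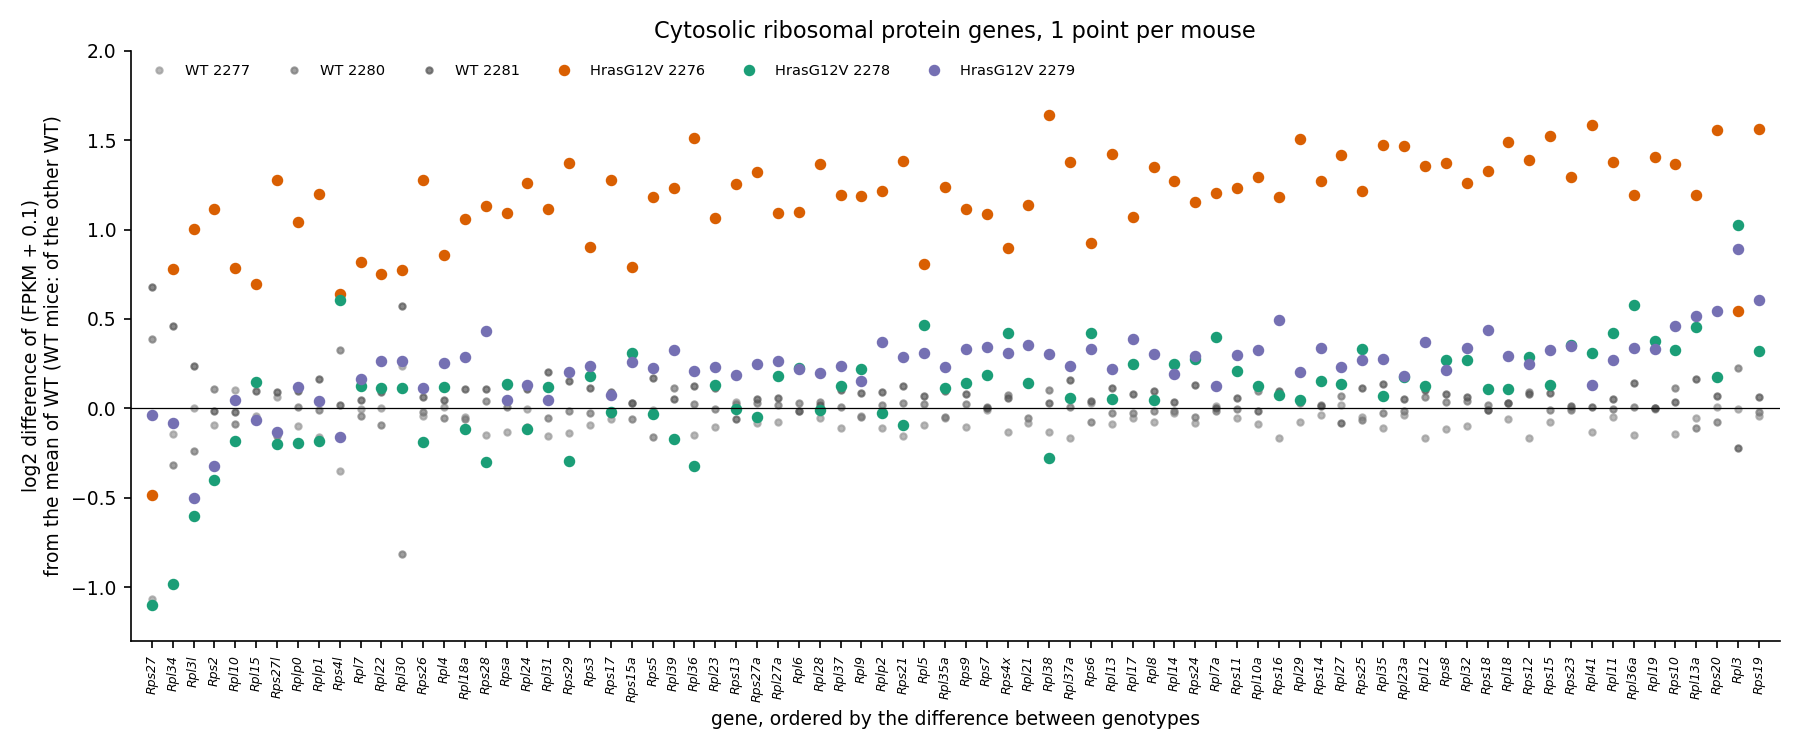
Log2 difference of FPKM + 0.1 in each mouse from the WT mean (for a WT mouse, from the other WT mice), for 78 tested ribosomal protein genes on the horizontal axis, 1 point per gene and mouse; *Rpl26* is left out. Points of *HrasG12V* mouse 2276 lie near 1.21, those of 2278 and 2279 near 0.13 and 0.25, and those of the WT mice near 0.

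Without mouse 2276 the median log2 fold change was 0.19, against -0.07 over all genes, and 16 of the 79 genes were higher at an unadjusted limma p below 0.05 (20.3%, against 12.6% of all genes). *Rpl3l* and *Rps2* were then lower (17.3% of all genes were). *Rpl3* was the only ribosomal protein gene with an adjusted limma p below 0.05, against 10.3% of all genes. Mice 2278 and 2279 were both above every WT mouse in 46 of the 79 genes, against 19.9% of all genes, which include by definition the separated genes counted above. Both were below every WT mouse in 4 genes (*Rpl26*, *Rpl3l*, *Rps2* and *Rps27l*), against 28.3% of all genes.

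Rescaling to the same total and quantile normalization changed the number of calls more than leaving out any single mouse did. Median centring of the libraries did not, with 2 genes higher at the unadjusted limit, against 5.36% of all genes. When each library was rescaled to the same total FPKM, the medians in mice 2276, 2278 and 2279 were 0.57, 0.40 and 0.59. Every *HrasG12V* mouse was then above every WT mouse in 65 of 79 genes, against 5.67% of all genes. At that scaling 56 genes were higher with an unadjusted limma p below 0.05, against 2.84% of all genes, and none had an adjusted limma p below 0.05 (0.0524% of all genes). The median log2 fold change hardly moved, from 0.53 to 0.52, while the mice came closer together.

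**Figure D2:**
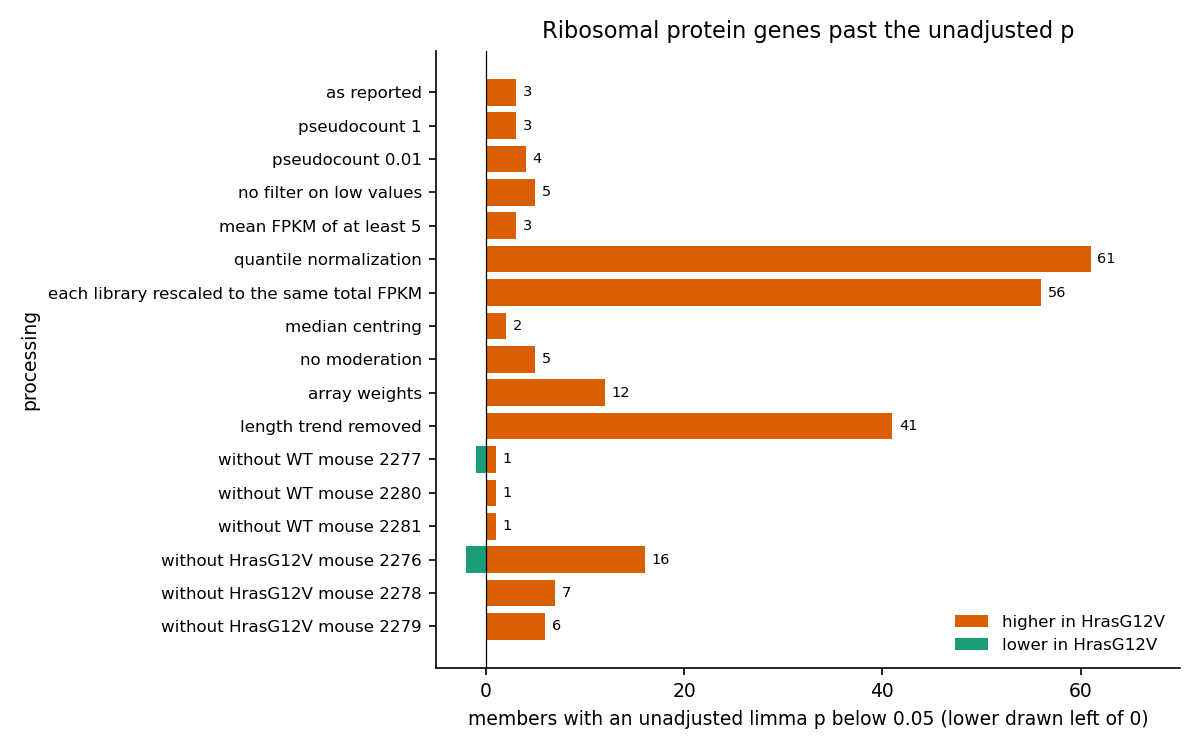
Number of ribosomal protein genes with an unadjusted limma p below 0.05 (horizontal axis, higher in *HrasG12V* mice to the right of 0 and lower to the left) under each way of processing the values (vertical axis). The count higher is 3 with the values as deposited, 56 after rescaling to the same total and 61 after quantile normalization.

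The count ranged from 1 to 61 over the ways of processing. Quantile normalization put 61 genes past the unadjusted limit, against 6.19% of all genes. Without a filter on low values 5 of 80 were higher (4.91% of all genes), without moderation of the variance 5 (4.15%), and with weights that limma estimates for each library 12 (10.5%). *Rpl3* alone was higher without WT mouse 2277, 2280 or 2281 (2.49%, 2.89% and 2.27% of all genes), and *Rps27* was then lower without WT mouse 2277 (2.23%). Without *HrasG12V* mouse 2278 or 2279 the counts were 7 and 6 (4.0% and 4.74%).

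The share of all FPKM that came from ribosomal protein genes does not depend on the scale of a library. It was 3.87%, 4.28% and 3.98% in WT mice 2277, 2280 and 2281, and 6.09%, 5.13% and 5.93% in *HrasG12V* mice 2276, 2278 and 2279. The means were 4.04% ± 0.212 (SD, n = 3) and 5.72% ± 0.514 (SD, n = 3), and every *HrasG12V* mouse was above every WT mouse. With 3 mice per genotype an exact two-sided permutation test cannot give a p below 0.1, so no p is given. Because single muscle and small RNA genes hold much of the sum, the share was also taken without the 10 most abundant genes. It was then 5.02% to 5.36% in WT mice and 6.55% to 8.58% in *HrasG12V* mice. The sums do not hold the same genes in every mouse, since 9 genes were at 0 in some libraries and above 1000 FPKM in another. With these left out as well, the share was 5.03% to 5.37% in WT mice and 6.78% to 8.65% in *HrasG12V* mice. The rescaling to the same total used the sums with these genes. In bulk tissue, a larger share in the same cells and more cells with a high share cannot be told apart.

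**Figure D3:**
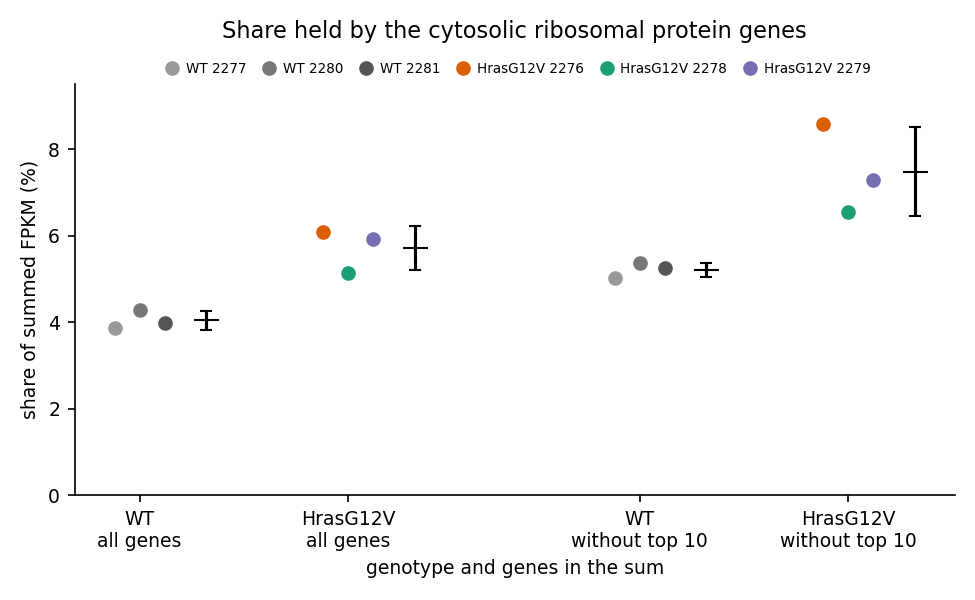
Percent of the summed FPKM of each library that came from the 81 ribosomal protein genes, with all genes and without the 10 most abundant genes, 1 point per mouse by genotype with the mean and SD of each group as a bar beside the points. *HrasG12V* mice lie at 5.13% to 6.09% and WT mice at 3.87% to 4.28% with all genes, and the groups do not overlap in either version.

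The ribosomal protein genes themselves summed to 20269, 20993 and 21752 FPKM in WT mice 2277, 2280 and 2281. They summed to 49593, 22035 and 24483 FPKM in *HrasG12V* mice 2276, 2278 and 2279, so the mean difference came mostly from 1 mouse. The large subunit genes summed to 1.34 to 1.36 times the small subunit genes in WT mice and to 1.32 to 1.35 times in *HrasG12V* mice, a ratio that moved little beside the sums.

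*Rpl3*, a large subunit protein next to the peptidyl transferase centre, had the smallest limma p of the 79 genes. In GENCODE vM21 (GRCm38) the gene spans chr15:80077791-80091868, minus strand. It had 65.5, 72.9 and 59.2 FPKM in WT mice 2277, 2280 and 2281, and 95.8, 133.9 and 122.0 FPKM in *HrasG12V* mice 2276, 2278 and 2279. All *HrasG12V* mice were above all WT mice, and mouse 2276 was here the lowest of the 3. The log2 fold change was 0.82 (standard error, SE, 0.22; limma adjusted p = 0.382), and the unadjusted p was below 0.05 in 15 of 16 other ways of processing, the exception being the rescaling to the same total. Without mouse 2276 it was 0.96 (limma adjusted p = 0.0169). *Rpl3* and *Rpl13a* are among the genes that the study lists from these same mice, so their choice is not independent of these values.

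*Rpl3l*, at chr17:24727820-24736143 on the plus strand, replaces *Rpl3* in ribosomes of mature striated muscle. It had 357.8, 320.1 and 398.1 FPKM in WT mice 2277, 2280 and 2281, and 717.3, 235.8 and 252.3 FPKM in *HrasG12V* mice 2276, 2278 and 2279. The groups overlapped, with mouse 2276 above all WT mice and mice 2278 and 2279 below them. The log2 fold change was -0.03 (SE 0.47, limma adjusted p = 0.991), and without mouse 2276 it was -0.55 (limma adjusted p = 0.0663).

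The 2 paralogs were set against each other within each library, which removes the library's scale. *Rpl3* made up 15.5%, 18.5% and 13.0% of the sum of *Rpl3* and *Rpl3l* in WT mice 2277, 2280 and 2281, with a mean of 15.7% ± 2.80 (SD, n = 3). In *HrasG12V* mice 2276, 2278 and 2279 it made up 11.8%, 36.2% and 32.6%, with a mean of 26.9% ± 13.2 (SD, n = 3). Mice 2278 and 2279 were thus far above the WT range and mouse 2276 just below it. The paralogs share much of their sequence, and how the authors' mapping divided shared reads was not tested.

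**Figure D4:**
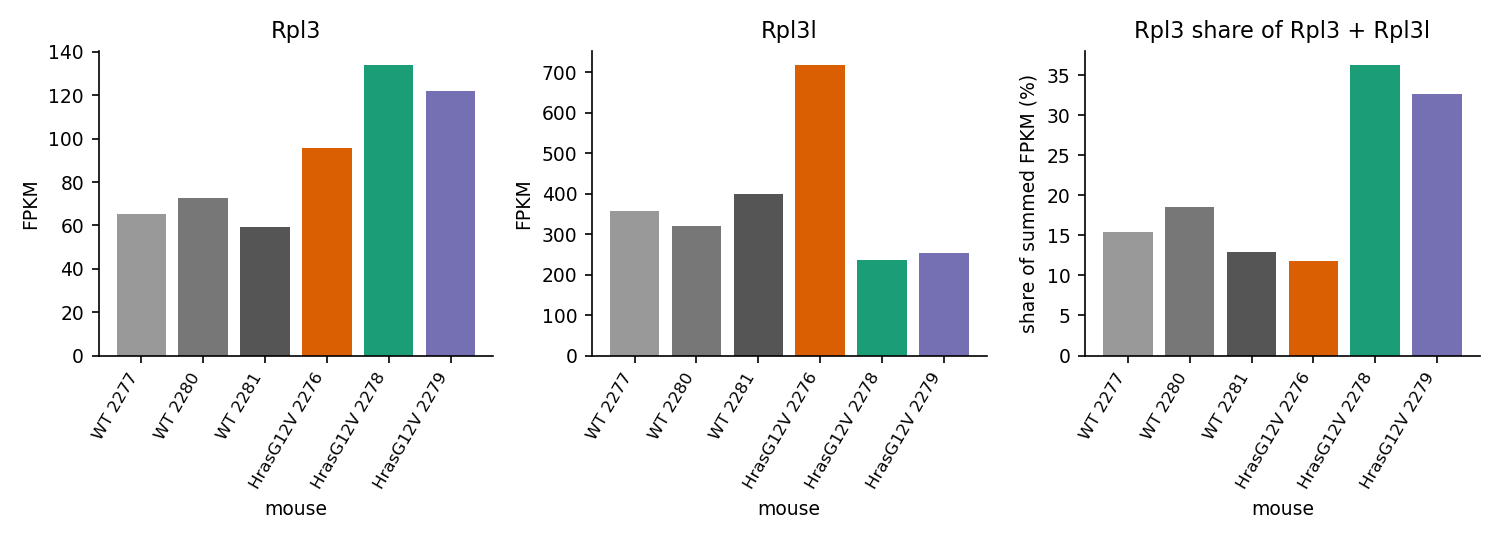
FPKM of *Rpl3* and of *Rpl3l* in each mouse by genotype, and *Rpl3* as a percent of the sum of both, 1 bar per mouse. *Rpl3* is higher in all 3 *HrasG12V* mice, whereas *Rpl3l* and the percent put mouse 2276 apart from mice 2278 and 2279, at 11.8% against 36.2% and 32.6%.

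*Rpl13a*, a large subunit protein also known for silencing translation of inflammatory mRNAs after its release from the ribosome, had 172.2, 167.9 and 190.7 FPKM in WT mice 2277, 2280 and 2281 and 404.2, 242.1 and 252.7 FPKM in *HrasG12V* mice 2276, 2278 and 2279. No value of 1 genotype fell within the range of the other. The log2 fold change was 0.72 (SE 0.28, limma adjusted p = 0.481). Without mouse 2276 it was 0.49 (limma adjusted p = 0.0594), and without any 1 WT mouse the unadjusted p was no longer below 0.05.

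*Rpl36a*, an X-linked large subunit gene with the autosomal paralog *Rpl36al*, had 145.2, 156.4 and 166.2 FPKM in WT mice and 356.7, 232.9 and 196.6 FPKM in *HrasG12V* mice 2276, 2278 and 2279. The genotypes did not overlap, and the log2 fold change was 0.70 (SE 0.29, limma adjusted p = 0.488). As for *Rpl13a*, the unadjusted p was no longer below 0.05 without any 1 WT mouse, nor without *HrasG12V* mouse 2278. Without mouse 2276 the log2 fold change was 0.46 (limma adjusted p = 0.0908). Its share of the sum with *Rpl36al* was 47.1%, 50.2% and 49.1% in WT mice and 47.2%, 63.8% and 60.7% in *HrasG12V* mice 2276, 2278 and 2279. As for *Rpl3*, mice 2278 and 2279 were above the WT range in this share and mouse 2276 was not. For *Rpl22*, a large subunit gene with the paralog *Rpl22l1*, the share of the pair was 45.9% to 49.7% in WT mice and 36.6%, 38.6% and 57.0% in *HrasG12V* mice, with values on both sides of WT.

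*Rps19*, a small subunit protein whose human gene is mutated in Diamond-Blackfan anaemia, had the highest log2 fold change of the 79 genes at 0.83 (SE 0.35, limma adjusted p = 0.493). It had 105.5, 106.8 and 110.8 FPKM in WT mice and 318.7, 134.5 and 164.1 FPKM in *HrasG12V* mice 2276, 2278 and 2279. The genotypes did not overlap, and the unadjusted limma p, just above 0.05 with the values as deposited, was below 0.05 in 7 of 16 alternatives. *Rps20*, also of the small subunit, was the third highest at 0.76 (limma adjusted p = 0.569), with 274 to 294 FPKM in WT mice and 321 to 839 FPKM in *HrasG12V* mice. Without mouse 2276 the log2 fold changes of *Rps19* and *Rps20* were 0.46 and 0.36 (limma adjusted p = 0.0828 and 0.182), below that of *Rpl3*. *Rps19* was also below *Rpl3* without WT mouse 2277 or 2280, after quantile normalization, with array weights and with the length trend removed.

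The acidic stalk proteins, which bind elongation factors on the large subunit, were among the genes in which the genotypes overlapped. *Rplp1* had the highest mean level of all ribosomal protein genes, with 936 to 1087 FPKM in WT mice and 2315, 887 and 1035 FPKM in *HrasG12V* mice 2276, 2278 and 2279. *Rplp0* and *Rplp2* had log2 fold changes of 0.32 and 0.52 (limma adjusted p = 0.828 and 0.680). In all 3 genes, and in *Rpsa*, the laminin receptor protein of the small subunit (log2 fold change 0.42, limma adjusted p = 0.721), the genotypes overlapped. The other abundant genes were *Rps2*, *Rps29* and *Rpl41*. *Rps2*, which lies near the decoding site of the small subunit, had 769 to 844 FPKM in WT mice and 1739, 609 and 643 FPKM in *HrasG12V* mice 2276, 2278 and 2279, so mice 2278 and 2279 were below every WT mouse. *Rps29* also overlapped (log2 fold change 0.43, limma adjusted p = 0.807). *Rpl41*, a very short peptide between the subunits, was above WT in every *HrasG12V* mouse (log2 fold change 0.67, limma adjusted p = 0.650). These values also rested on mouse 2276. Without it the log2 fold changes were -0.04, -0.07 and 0.17 for *Rplp0*, *Rplp1* and *Rplp2* and 0.09 for *Rpsa*. They were -0.36 for *Rps2*, -0.04 for *Rps29* and 0.22 for *Rpl41*, and none of these 7 genes had a limma adjusted p below 0.05.

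Of the paralogs inside the rule, *Rps27l* had 99.4 to 111 FPKM in WT mice and 259, 92.7 and 97.3 FPKM in *HrasG12V* mice 2276, 2278 and 2279, the same order of mice as *Rpl3l*. *Rps4l*, which GENCODE vM21 types as a transcribed processed pseudogene, was low, at 2.96 to 5.50 FPKM. It made up less than 1% of its sum with *Rps4x*. *Rps4x* had 423 to 465 FPKM in WT mice and 557 to 836 FPKM in *HrasG12V* mice. *Rpl10* and *Rpl39*, the parents of the testis paralogs, overlapped between genotypes with log2 fold changes of 0.22 and 0.46 (limma adjusted p = 0.877 and 0.733), which were -0.07 and 0.08 without mouse 2276.

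Some members were listed far below the rest. *Rps27* was at 1.24 to 3.83 FPKM and *Rpl34* at 4.61 to 15.9 FPKM, while the intronless copies *Rps27rt* and *Rpl34-ps1* were at 452 to 1273 FPKM and at 418 to 993 FPKM. A copy of this kind shares its sequence with the parent mRNA, so the values of parent and copy are uncertain 1 by 1. *Rps27* and *Rpl34* had the lowest log2 fold changes beside *Rpl3l* among genes of at least 1 FPKM, -0.54 and -0.10 (limma adjusted p = 0.696 and 0.966), which were -0.57 and -0.53 without mouse 2276. Summed with its copy, *Rps27* had 454 to 466 FPKM in WT mice and 1275, 572 and 832 FPKM in *HrasG12V* mice 2276, 2278 and 2279, a mean log2 difference of 0.87. Summed with *Rpl34-ps1*, *Rpl34* had 427 to 459 FPKM in WT mice and 1009, 486 and 508 FPKM in *HrasG12V* mice, a mean log2 difference of 0.51. The sums therefore lay in the direction of the other genes, with every *HrasG12V* mouse above WT. *Rpl30*, at 1.79 to 4.61 FPKM, was also low.

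Transcript length went with the size of the difference in mouse 2276 and not in the same way in the others. Over the 79 genes, which share each library, Spearman's rho between length and the log2 difference was -0.385 in mouse 2276, 0.303 in mouse 2278 and 0.059 in mouse 2279. When each library's trend over length was removed, the median log2 fold change of the ribosomal protein genes was 0.42 and 41 were higher at an unadjusted limma p below 0.05, against 6.48% of all genes.

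The mitochondrial ribosomal protein genes, which encode the separate ribosome inside mitochondria, are the most alike group by function. Over 77 genes their median log2 difference was 0.94, -0.43 and -0.56 in *HrasG12V* mice 2276, 2278 and 2279, so they lay above WT in 1 mouse and below in the other two. None passed an unadjusted limma p of 0.05 in either direction, against 5.18% of all genes higher and 4.99% lower. Without mouse 2276, 66 of the 77 were lower at that limit, against 17.3% of all genes. Of these 77, 22 then had an adjusted limma p below 0.05, against 10.3% of all genes. The cytosolic median minus the mitochondrial median was -0.12, 0.12 and -0.001 in WT mice and 0.27, 0.56 and 0.81 in *HrasG12V* mice. The ratio of the sums was 5.79, 6.53 and 6.06 in WT mice and 7.26, 8.95 and 11.1 in *HrasG12V* mice, again with no overlap. Comparing within a library removes its scale but not the trend over transcript length in mouse 2276. In that mouse, genes other than the cytosolic ribosomal protein genes had a median of 0.69 below 1000 nt and 0.43 from 1000 to 2000 nt. The part of length in this comparison was not tested.

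**Figure D5:**
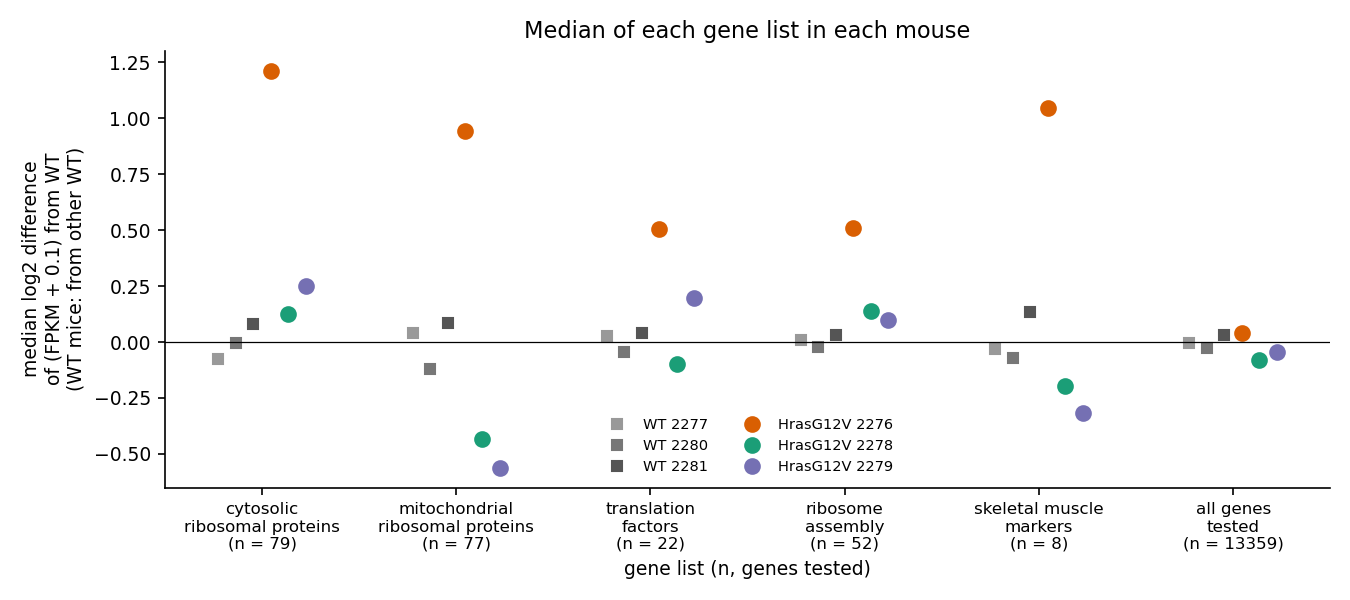
Median log2 difference from the WT mean in each mouse (for a WT mouse, from the other WT mice) for the cytosolic and mitochondrial ribosomal protein genes and the related gene lists, 1 point per mouse. Cytosolic genes are at 1.21, 0.13 and 0.25 in *HrasG12V* mice 2276, 2278 and 2279, and mitochondrial genes at 0.94, -0.43 and -0.56.

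Genes that build the ribosome were compared as a list of 52, covering RNA polymerase I, snoRNP proteins and assembly factors. Of these 8 were higher at an unadjusted limma p below 0.05 (5.18% of all genes) and none was lower (4.99%). The log2 fold change was above 0 for 49 (46.6% of all genes), and the median was 0.23. In 15 of the 52 every *HrasG12V* mouse was above every WT mouse (8.11% of all genes). *Taf1d*, a subunit of the RNA polymerase I selectivity factor, had 6.19, 6.74 and 5.95 FPKM in WT mice and 10.5, 11.4 and 9.95 FPKM in *HrasG12V* mice. All 3 *HrasG12V* mice were close together in this gene, including mouse 2276, and the log2 fold change was 0.74 (SE 0.14, limma adjusted p = 0.288), or 0.75 without mouse 2276 (limma adjusted p = 0.0210). *Nop58* and *Nop56*, core proteins of the box C/D snoRNPs that guide rRNA methylation, rose by 0.56 and 0.59 on the log2 scale at the unadjusted limit, and *Polr1a*, the largest RNA polymerase I subunit, by 0.62 (limma adjusted p = 0.435, 0.445 and 0.456). Without mouse 2276 these 3 were at 0.51, 0.42 and 0.40, and the list had a median of 0.14 with 10 higher and 2 lower genes (12.6% and 17.3% of all genes). Without 1 WT mouse only 1 or 2 of the 52 were higher, against 2.27% to 2.89% of all genes. At the same total FPKM 3 were higher (2.84% of all genes) and with the length trend removed 12 (6.48%).

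The list of translation factors with TOP mRNAs (22 genes) also held other genes, such as *Fau*, which encodes a small subunit ribosomal protein. The list had a median of 0.21 with 19 above 0 (46.6% of all genes), and none passed the unadjusted limit (5.18% higher, 4.99% lower). This rested on mouse 2276, since without it the median was -0.005 with 11 above 0, 5 genes were higher and 1 lower at the unadjusted limit (12.6% and 17.3% of all genes), and 2 had an adjusted limma p below 0.05 (10.3%). Of the mTOR and ribosomal S6 kinase list (22 genes tested), 2 were higher (5.18% of all genes), 1 was lower (4.99%) and the median was -0.11. Without mouse 2276, 3 were higher and 3 lower (12.6% and 17.3% of all genes), 4 had an adjusted limma p below 0.05 (10.3%), and the median was -0.14. *Rps6ka1*, a kinase downstream of ERK, had 3.57 to 4.09 FPKM in WT mice and 8.41, 5.83 and 8.53 FPKM in *HrasG12V* mice 2276, 2278 and 2279 (log2 fold change 0.96, limma adjusted p = 0.297). *Rps6ka2*, of the same kinase family, had 40.5 to 52.1 FPKM in WT mice and 31.9, 18.2 and 28.1 FPKM in *HrasG12V* mice (log2 fold change -0.91, limma adjusted p = 0.398). Both kinases are on the study's list from these mice. *Myc*, a transcription factor that drives ribosome production, rose by 0.64 on the log2 scale (limma adjusted p = 0.468). Without mouse 2276 the log2 fold changes of *Rps6ka1*, *Rps6ka2* and *Myc* were 0.87, -1.07 and 0.83 (limma adjusted p = 0.0460, 0.0478 and 0.0435).

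Markers of other cells also differed between mice. The summed FPKM of 9 B cell markers was 0.753 to 1.26 in WT mice, 1.51 in mouse 2276, 93.2 in mouse 2278 and 73.6 in mouse 2279, and T cell markers (9 genes) summed to 0.869 to 1.11 in WT mice and to 1.26, 40.3 and 51.7 in the same *HrasG12V* mice. Of these, *Cd79a* had at most 0.367 FPKM in WT mice and in mouse 2276, and 26.4 and 20.9 in mice 2278 and 2279. Neutrophil markers summed to 0.815 to 4.01 in WT mice and to 21.2, 138 and 54.4 in *HrasG12V* mice, so all 3 were above every WT mouse. Adipocyte markers, apart from *Fabp4*, which held most of their sum, summed to 15.0 to 61.7 in WT mice and to 54.9, 240 and 190 in *HrasG12V* mice 2276, 2278 and 2279, high in the same mice as the lymphocyte markers. Erythroid markers summed to 658 to 765 in WT mice and to 1975, 1495 and 604 in *HrasG12V* mice 2276, 2278 and 2279, highest in the mouse with the highest ribosomal protein FPKM. Markers of fibroblasts and tendon summed to 2183 to 4920 in WT mice and to 875, 3598 and 1086 in *HrasG12V* mice, macrophage markers to 57.4 to 69.9 and to 86.5, 117 and 63.9, and markers of dividing cells to 3.94 to 6.47 and to 5.60, 22.5 and 9.59. The genotypes overlapped in the sums of fibroblast, macrophage, dividing cell and erythroid markers. The lymphocyte markers were thus high in mice 2278 and 2279, in which *Rpl3* was highest and *Rpl3l* lowest, and near WT in mouse 2276, in which the summed ribosomal protein FPKM was highest. The 5 markers of heart muscle summed to 8.21 to 16.6 FPKM in WT mice and to 38.7, 20.3 and 32.8 FPKM in *HrasG12V* mice, and the 5 skeletal muscle markers that were above 0 in all libraries to 30382 to 44611 FPKM and to 74539, 29785 and 23513 FPKM. Nucleated cells of all these kinds express ribosomal protein genes, and their part in the ribosomal protein values was not tested.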

How the data were processed

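Gastrocnemius of 3 *HrasG12V* and 3 WT mice was measured in 1 library each. Per the labels and methods, the authors made stranded mRNA libraries (KAPA), sequenced single-end reads and ran TopHat, Cufflinks and Cuffnorm, and the deposited values are FPKM per gene symbol. The submitters' processing notes name GRCm38 and mm10. Versions of these tools and their gene annotation were not given in any source used here. Since Cuffnorm equalises libraries, a sum of FPKM is no depth. The methods state a nominal sequencing depth, but the reads behind each library's values are not known here.

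Genes with a mean of at least 0.5 FPKM over the 6 mice were kept (13359 genes), 0.1 was added, and log2 values were fitted by genotype in limma 3.58.1 (R 4.3.3, moderated variances with an abundance trend, no covariate) with Benjamini-Hochberg adjustment. Fold changes are on the log2(FPKM + 0.1) scale, which understates changes of low genes. P-values set the difference between genotypes against the spread of these 6 mice within genotypes, moderated over all genes tested. Gene positions and lengths came from GENCODE vM21 on GRCm38 (99.3% of tested genes had a length) and promoters from RefSeq on GRCm38.p6. The fit was tested on simulated data. Summaries were made in Python 3.11.15 with numpy 2.4.6 and pandas 2.3.3, and plots with matplotlib 3.10.9.

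The genes and lists were chosen with earlier results of these data known. Named were paralogs and their parents, *Rpl3* and *Rpl13a*, members past the unadjusted p, the 3 highest and 3 lowest fold changes of at least 1 FPKM, the 5 highest and 3 lowest levels, *Rplp0*, *Rplp1*, *Rplp2* and *Rpsa*, and up to 4 genes of each related list past the unadjusted p. *Rpl30*, *Rps27rt*, *Rpl34-ps1*, *Cd79a*, *Fabp4* and *Mylpf* were named with their values known. The alternatives tried were a pseudocount of 0.01 or 1, no filter, a limit of 5 FPKM, quantile normalization, the same total, median centring, no moderation, array weights, removal of the length trend and leaving out each mouse. The shares without the 10 most abundant genes and without the genes at 0 in some libraries were added after seeing the data. So were the values per mouse at the same total and the sums with intronless copies.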

Additional observations from a re-analysis of the deposited data

How the results depend on the processing

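The median log2 fold change of the ribosomal protein genes stayed above 0 in all 16 alternatives, at 0.19 to 0.73 when 1 mouse was left out. The number of genes higher at an unadjusted limma p below 0.05, which was 3, was 5 without a filter, 5 without moderation, 12 with array weights, 41 with the length trend removed, 56 at the same total and 61 after quantile normalization, and 1 to 16 without 1 mouse (1 without each WT mouse in turn, and 16, 7 and 6 without *HrasG12V* mouse 2276, 2278 and 2279). The number lower was 0 to 2, with *Rps27* lower without WT mouse 2277. *Rpl3* had a log2 fold change of 0.81 at the same total, no longer past the unadjusted limit, and kept an unadjusted limma p below 0.05 in the other 15 alternatives. *Rpl3l* ranged from -0.55 to 0.25 without 1 mouse. Its unadjusted limma p fell below 0.05 only without mouse 2276. The *Rpl3* share of the pair differed by 6.53 to 18.8 percentage points without 1 mouse. The share of summed FPKM differed by 1.68 points between genotypes, and by 2.27 without the 10 most abundant genes. The cause of these changes was not tested. Array weights gave mouse 2276 a weight of 0.0933, against 0.7304 or more for the others. *Rpl13a* kept an unadjusted limma p below 0.05 in 13 of 16 alternatives and *Rpl36a* in 10. No paired analysis was possible because the genotypes share no mouse numbers and the labels give no litter. Single FPKM carry no read depth, so low genes such as *Rps27*, *Rpl30* and *Rps4l* are the least certain.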
